A study of Mus musculus with 18 samples.

Results

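The TCA cycle enzymes described here are 9 genes of the mitochondrial matrix cycle, Cs, Idh2, Idh3a, Idh3b, Idh3g, Ogdh, Suclg1, Fh1 and Mdh2. They were taken by symbol from a table of 18522 mouse genes, by a rule that uses no measured value but was set with earlier results of these data known, and all 9 passed the filter on low counts that left 14871 genes for testing. Their transcripts were followed in naive CD8+ T cells taken from spleen and lymph nodes of wild-type male C57BL/6N mice, 8 to 12 weeks old. The cells were activated in culture with immobilized anti-CD3 and anti-CD28. The medium was either complete (control) or had no asparagine (Asn restriction), and RNA was sequenced after 4, 24 and 72 h with 3 libraries in each of 6 groups. All 6 groups thus share genotype, tissue source and activation and differ in medium and time; unactivated cells were not analysed here. Whether the 3 libraries of a group came from separate animals or cultures is not stated, so the p-values measure the spread between these libraries, which may be technical. In a bulk culture, fewer cells of a type and less RNA per cell cannot be told apart.

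The tricarboxylic acid (TCA) cycle oxidizes the acetyl group of acetyl-CoA to carbon dioxide and passes the electrons to NAD+ and to the respiratory chain. Its intermediates also leave the mitochondrion as building blocks. Citrate is exported for fatty acid synthesis, and oxaloacetate gives aspartate, from which asparagine synthetase (Asns) makes Asn. Activated T cells feed the cycle from glucose through pyruvate and from glutamine through 2-oxoglutarate. The 9 genes encode citrate synthase (Cs, the entry step), the NADP+-dependent isocitrate dehydrogenase of the matrix (Idh2), the 3 subunits of the NAD+-dependent isocitrate dehydrogenase (Idh3a, Idh3b and Idh3g) and the E1 subunit of the 2-oxoglutarate dehydrogenase complex (Ogdh). They also encode the alpha subunit shared by both succinyl-CoA ligases (Suclg1), fumarate hydratase (Fh1) and malate dehydrogenase 2 (Mdh2), which regenerates oxaloacetate.

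The libraries held 11576889 to 22172185 counts, of which ERCC spike-ins, synthetic RNAs added to the samples, took 0.829 to 1.72%. The members were well covered. Idh2 had the fewest counts, 23 to 40 per library under Asn restriction at 4 h, and every other member had at least 473 in each library. The 6 CD8 T cell markers (Cd8a, Cd8b1, Cd3d, Cd3e, Cd3g and Trac) were at 62.2 CPM (gene counts scaled to one common library size, with TMM factors) or more in all 18 libraries. Of the 12 markers of CD4, B, NK and myeloid cells, 11 stayed at or below 3.87 CPM, and Itgax reached 11.1. The summed level of the 6 CD8 T cell markers differed between media, at 1457 to 1503 CPM in control and 1251 to 1314 CPM under Asn restriction at 4 h, 1006 to 1017 against 1106 to 1158 CPM at 24 h and 1043 to 1068 against 730 to 740 CPM at 72 h. The markers did not move alike. At 4 h the means of Cd8a (265 against 95.4 CPM) and Cd8b1 (138 against 77.1 CPM) were lower under Asn restriction, as were those of Cd3d, Cd3e and Cd3g. That of Trac was higher (600 against 730 CPM). At 24 h Cd8a and Cd8b1 overlapped between media, while Trac (214 against 262 CPM) and Cd3e (152 against 198 CPM) were higher under Asn restriction. At 72 h each of the 6 was lower. The summed level of the 5 myeloid and dendritic markers fell with time, from 9.90 to 15.6 CPM at 4 h to at most 0.831 CPM at 72 h. At 4 and 24 h it was higher under Asn restriction in every library. The part of these markers in the results was not tested. Asns was at 24.2 to 27.9 CPM in control and at 64.8 to 72.7 CPM under Asn restriction at 4 h, and was also higher under Asn restriction at 24 and 72 h, with no overlap between the media. The second control library at 72 h stood apart, holding the smallest total and taking 0.439% of its counts from mitochondrial genes, where the other 17 took 0.741% or more; the values of Cs and Mdh2 that rest on it are given with and without it.

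The genes lie on 9 chromosomes of GRCm38 (GENCODE M21). Cs spans chr10:128337734-128362479, Idh2 chr7:80094846-80115392, Idh3a chr9:54586334-54604661, Idh3b chr2:130279309-130284547 and Idh3g chrX:73778963-73786897. Ogdh spans chr11:6291633-6356642, Suclg1 chr6:73248382-73276911, Fh1 chr1:175600374-175625635 and Mdh2 chr5:135778480-135790398. Counts are given per gene, and how reads were assigned to a gene is not stated in the sources used here. Idh3b shares 5 exon bases with Nop56 on the other strand, and whether counting used strand is not given in the sources used here. With Asn restriction the log2 fold change of Nop56 was 0.60 (SE 0.045) at 4 h, 0.03 (SE 0.045, adjusted p = 0.552) at 24 h and 0.47 (SE 0.046) at 72 h. Whether reads of Nop56 entered the counts of Idh3b was not tested.

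RefSeq promoter windows (GRCm38.p6, from 250 bases before to 50 after an annotated start) were at hand for 8 of the 9 members, 13 windows in all, with 6 for Ogdh. They are shown because, with TMM scaling, all 9 genes were lower under Asn restriction at 4 and 24 h and split at 72 h. Whether the members share a regulator was not tested. Motifs were searched on both strands. The NRF1 motif GCGCANGCG was in 2 of the 13 windows, both of Ogdh, which overlap and hold the same site, and in 6.25% of the 32851 windows of all genes. The E-box CACGTG was in 3 windows, all of Ogdh (7.15% of all windows), the ETS motif ACTTCCG in 1 window, of Mdh2 (6.42%), and the ATF4 composite motif TGATGNAA in none (3.97%). These matches are descriptions of letters, and no match was found in the windows of Cs, Idh2, Idh3b, Idh3g, Suclg1 or Fh1. The windows of 4 members are printed 5′ to 3′ on the gene's strand with motif matches in capitals, namely Idh2 and Fh1, which changed most among the members with a window, and Mdh2 and Ogdh, which hold matches (in Mdh2 as the reverse complement, CGGAAGT).
Idh2, chr7:80115301-80115600, minus strand: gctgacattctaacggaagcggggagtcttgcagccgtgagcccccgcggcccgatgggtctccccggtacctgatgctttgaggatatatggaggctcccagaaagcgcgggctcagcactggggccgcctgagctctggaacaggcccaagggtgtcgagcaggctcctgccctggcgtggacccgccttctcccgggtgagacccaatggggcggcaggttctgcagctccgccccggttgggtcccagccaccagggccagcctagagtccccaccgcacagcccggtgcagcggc
Fh1, chr1:175625586-175625885, minus strand: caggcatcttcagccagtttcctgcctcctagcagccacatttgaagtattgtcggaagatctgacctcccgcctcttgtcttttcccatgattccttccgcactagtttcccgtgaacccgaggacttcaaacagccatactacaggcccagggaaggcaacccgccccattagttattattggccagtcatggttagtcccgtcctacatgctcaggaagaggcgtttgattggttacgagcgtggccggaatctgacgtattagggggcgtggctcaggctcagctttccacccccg
Mdh2, chr5:135778399-135778698, plus strand: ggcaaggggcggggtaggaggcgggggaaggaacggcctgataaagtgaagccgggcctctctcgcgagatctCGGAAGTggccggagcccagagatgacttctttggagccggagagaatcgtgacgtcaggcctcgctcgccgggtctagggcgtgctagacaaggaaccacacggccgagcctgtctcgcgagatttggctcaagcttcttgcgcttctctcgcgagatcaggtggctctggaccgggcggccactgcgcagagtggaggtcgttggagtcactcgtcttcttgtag
Ogdh, chr11:6292308-6292607, plus strand: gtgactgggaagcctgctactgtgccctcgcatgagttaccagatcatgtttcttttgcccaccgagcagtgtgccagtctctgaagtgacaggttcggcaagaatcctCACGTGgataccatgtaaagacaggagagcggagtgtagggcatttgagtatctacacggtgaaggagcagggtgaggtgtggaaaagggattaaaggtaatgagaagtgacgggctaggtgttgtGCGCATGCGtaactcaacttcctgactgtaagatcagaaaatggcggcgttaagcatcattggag
The Ogdh window lies inside the annotated gene, and which of the 6 starts these cells use was not measured.

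Under Asn restriction all 9 enzymes were lower than in control at 4 h and at 24 h, and at 72 h they split. At 4 h, 9 of 9 fell and none rose, with no overlap between the media for any of them; of all genes tested, 22% fell, 23.6% rose and 54.7% did not overlap. At 24 h again 9 of 9 fell, none rose and none overlapped, against 28% of all genes that fell, 27.5% that rose and 61.3% that did not overlap. At 72 h, 4 rose (Idh3a, Fh1, Suclg1 and Mdh2; 25.4% of all genes rose) and 3 fell (Idh2, Ogdh and Idh3b; 23.8% fell). Cs and Idh3g did not pass the test at 72 h, and they were the 2 members whose libraries overlapped, 7 of 9 being apart against 53.6% of all genes. The median log2 fold change of the 9 was -0.48 at 4 h, -0.49 at 24 h and -0.08 at 72 h, beside 0.02, 0.01 and -0.01 over all genes. These directions use TMM scaling, which sets the bulk of genes to no change. Scaling by the ERCC spike-ins moved the median of all genes to -0.11, 0.25 and 0.31 at 4, 24 and 72 h. With it Idh3g, Ogdh and Mdh2 turned to values just above 0 at 24 h, none of them called. At 72 h Idh3b (0.16), Cs (0.24) and Idh3g (0.22) turned to values above 0, none of them called. With spike-in scaling 7 of 9 were called lower at 4 h, all but Ogdh and Mdh2. At 24 h it called 2 lower (Idh2 and Fh1), and at 72 h 4 higher and none lower. Of all 14871 genes, the same fit called 2122 lower at 4 h, 1099 lower at 24 h, and 4239 higher and 754 lower at 72 h. Without TMM factors the 24 h falls of Idh3g, Ogdh and Mdh2 were not called. Measured from the median of all genes, all 9 members lay below it at 4 and at 24 h, and 4 above and 5 below it at 72 h. These positions were the same under each of 5 scalings. A change of scaling moves all genes by nearly the same amount, so that agreement was fixed in advance and does not bear on the choice of scaling. The plot of levels by library shows the 9 genes side by side.

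**Figure D1:**
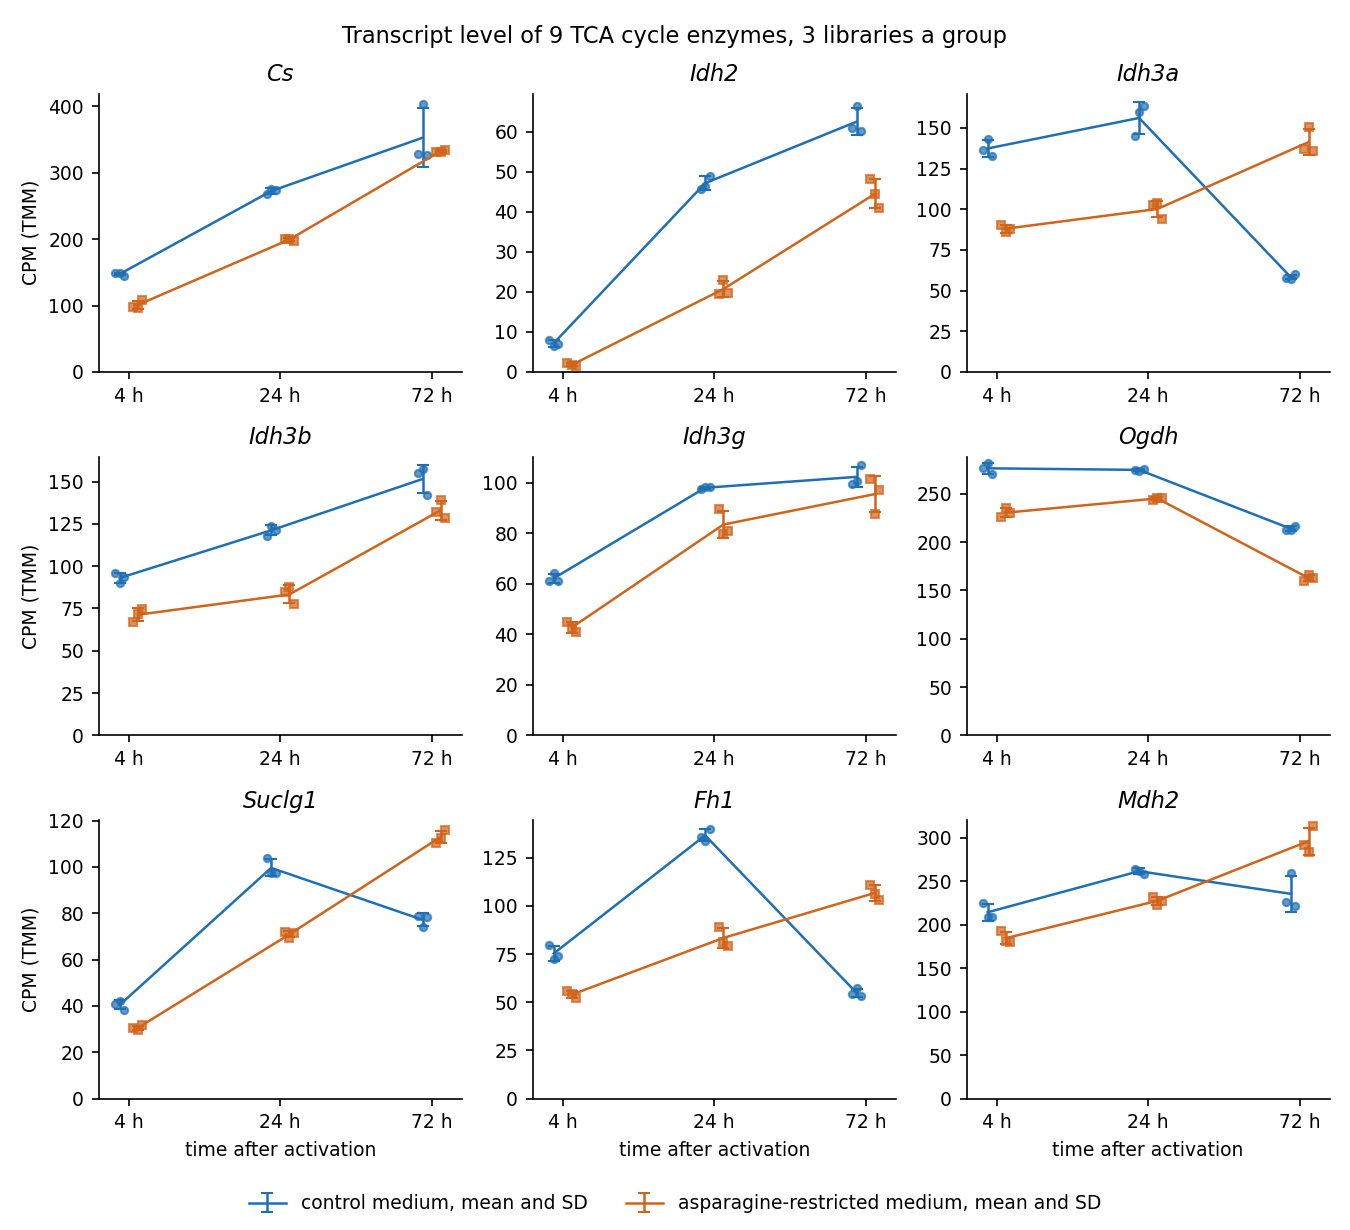
Transcript level of each TCA cycle enzyme (y axis, CPM after TMM scaling, from 0) at 4, 24 and 72 h after activation (x axis, not to scale), with circles for the 3 control libraries, squares for the 3 libraries under Asn restriction, lines through the means and bars for the SD. The control means lie above the Asn restriction means in all 9 panels at 4 and 24 h (with spike-in scaling not for Idh3g, Ogdh and Mdh2 at 24 h). At 72 h the order is turned for Idh3a, Suclg1, Fh1 and Mdh2 (with spike-in scaling also for Cs, Idh3b and Idh3g, none of these called).

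Citrate synthase joins acetyl-CoA to oxaloacetate at the start of the cycle. Cs was at 149, 148 and 145 CPM in the 3 control libraries at 4 h and at 97.8, 96.9 and 108 CPM under Asn restriction, a log2 fold change of -0.55 (SE 0.061, adjusted p = 5.81e-09). At 24 h control held 267, 275 and 274 CPM and Asn restriction 201, 200.2 and 197 CPM (log2 fold change -0.45, SE 0.057, adjusted p = 6.65e-08). The media were fully apart at both times. At 72 h the control libraries had 328, 403 and 326 CPM and the Asn restriction libraries 331, 331 and 334 CPM, and the difference did not pass the test (log2 fold change -0.08, SE 0.057, adjusted p = 0.241). The 403 CPM came from the second control library; without it the log2 fold change was 0.03 (adjusted p = 0.664). Without TMM factors and with the authors' size factors the 72 h difference was called lower (-0.19, adjusted p = 0.00517, and -0.14, adjusted p = 0.0351). With spike-in scaling it was 0.24 and not called. Cs rose from each time to the next in both media.

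Idh2 oxidizes isocitrate with NADP+ and so supplies NADPH in the matrix. It was the weakest of the 9 early on and showed the deepest fall. At 4 h it had 8.04, 6.42 and 7.04 CPM in control and 2.15, 1.71 and 1.505 CPM under Asn restriction (log2 fold change -1.99, SE 0.16, adjusted p = 1.03e-11), a 3.98-fold lower level. At 24 h the levels were 45.8, 46.6 and 49.0 CPM against 19.3, 23.1 and 19.7 CPM (log2 fold change -1.19, SE 0.087, adjusted p = 5.62e-13). At 72 h they were 60.9, 66.3 and 60.3 CPM against 48.1, 44.4 and 40.9 CPM (log2 fold change -0.49, SE 0.083, adjusted p = 8.87e-06). Every control library was above every Asn restriction library at each time, and the gap narrowed on the log2 scale. With spike-in scaling the 72 h difference was -0.16 (adjusted p = 0.595). The difference was smaller at 24 h than at 4 h by 0.80 (SE 0.19, adjusted p = 0.00137) and smaller at 72 h than at 24 h by 0.70 (SE 0.12, adjusted p = 8.98e-06). From its lowest group, Asn restriction at 4 h, to its highest, control at 72 h, the mean of Idh2 rose 34.9-fold, against 1.61- to 3.70-fold between the lowest and highest groups of the other 8 members.

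The NAD+-dependent isocitrate dehydrogenase makes 2-oxoglutarate and is built from a catalytic alpha subunit (Idh3a) and the regulatory beta and gamma subunits (Idh3b and Idh3g). Idh3a had the largest rise of the 9 at 72 h. It was at 136, 143 and 133 CPM in control and 90.6, 85.8 and 87.9 CPM under Asn restriction at 4 h (log2 fold change -0.64, SE 0.057, adjusted p = 6.52e-11), and at 145, 159.6 and 163 CPM against 103, 104 and 94.2 CPM at 24 h (-0.64, SE 0.056, adjusted p = 2.74e-11). At 72 h the control libraries had dropped to 58.0, 57.2 and 60.0 CPM while those under Asn restriction held 137, 151 and 136 CPM. The log2 fold change at 72 h was 1.27 (SE 0.059, adjusted p = 1.26e-17), 2.42-fold. Of all genes tested, 3.93% had a larger log2 fold change at that time. The order of the media was thus turned between 24 and 72 h, and the test of that difference gave 1.91 on the log2 scale (SE 0.081, adjusted p = 6.36e-19), the largest among the 9.

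With TMM scaling the regulatory subunits fell with Idh3a at 4 and 24 h but did not rise with it at 72 h. Idh3b was at 95.9, 89.8 and 93.3 CPM in control and 67.1, 71.7 and 74.9 CPM under Asn restriction at 4 h (log2 fold change -0.39, SE 0.060, adjusted p = 2.25e-06). At 24 h it was at 118, 124 and 122 CPM against 84.5, 87.8 and 77.4 CPM (-0.54, SE 0.057, adjusted p = 1.76e-09), and at 72 h at 155, 158 and 142 CPM against 132, 139 and 128 CPM (-0.19, SE 0.056, adjusted p = 0.00647). It stayed below control at all 3 times, except with spike-in scaling at 72 h, where the value was 0.16 (adjusted p = 0.565). Idh3g was at 61.3, 64.2 and 61.1 CPM against 44.9, 42.4 and 40.9 CPM at 4 h (-0.54, SE 0.065, adjusted p = 3.52e-08) and at 97.7, 98.3 and 98.3 CPM against 89.7, 79.8 and 81.0 CPM at 24 h (-0.23, SE 0.060, adjusted p = 0.00151). At 72 h the Idh3g libraries overlapped, with 99.6, 101 and 107 CPM in control and 102, 87.8 and 97.3 CPM under Asn restriction (-0.10, SE 0.060, adjusted p = 0.174). Of the 10 alternatives, 3 called it lower, with adjusted p from 0.0039 to 0.0465. With spike-in scaling the 72 h value was 0.22 and not called. At 24 h the fall of Idh3g was called in neither the fit without TMM factors (adjusted p = 0.0779) nor the one with spike-in scaling.

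Ratios between the subunits within a library do not depend on how libraries were scaled. Per kilobase of gene length, Idh3a stood to Idh3b at 0.297, 0.289 and 0.336 in the control libraries at 72 h and at 0.827, 0.861 and 0.841 under Asn restriction. In the other 4 groups the ratio lay between 0.932 and 1.27. The control libraries at 72 h were thus the low group, apart from all other libraries. Idh3a to Idh3g gave the same picture, with 0.470, 0.459 and 0.452 in control at 72 h and 0.921 to 1.80 in the other 15 libraries. Idh3b to Idh3g moved less, from 0.956 to 1.86 over all 18 libraries, and at 72 h it was 1.34 to 1.59 in control and 1.32 to 1.61 under Asn restriction, which overlap. Its lowest libraries were those under Asn restriction at 24 h, at 0.956, 1.12 and 0.970, below the 1.23 to 1.86 of the other 15. With 3 libraries against 3, an exact permutation test cannot go below a two-sided p of 0.1, so these ratios are given without a test.

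**Figure D2:**
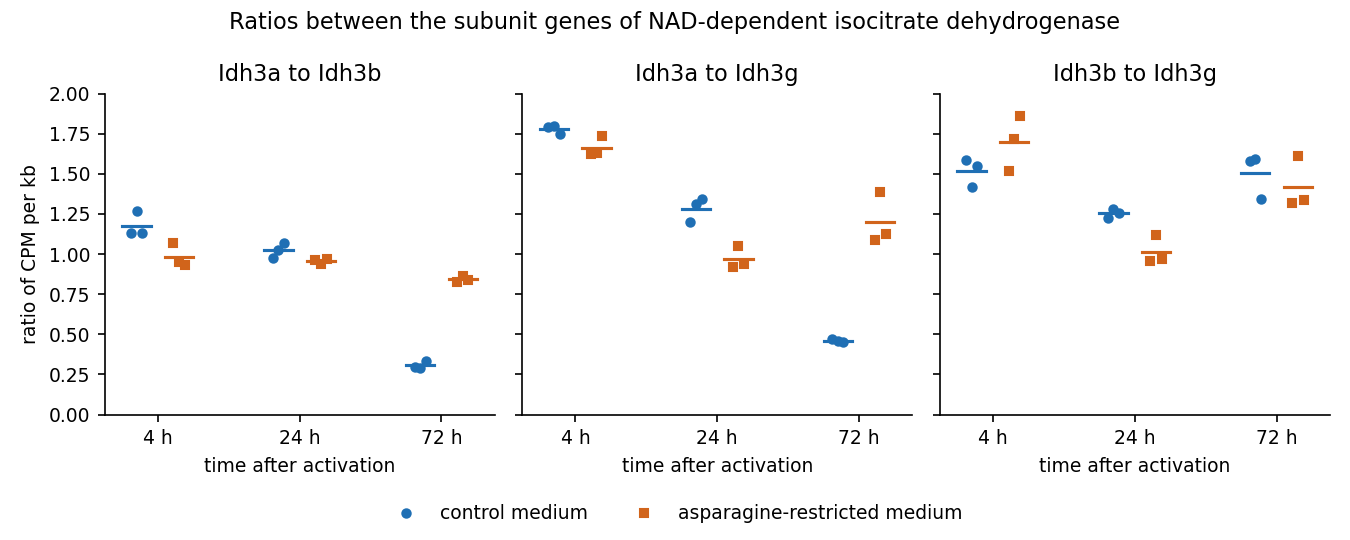
Ratio of CPM per kilobase (y axis, from 0) between the subunit genes Idh3a, Idh3b and Idh3g in each of 18 libraries at 4, 24 and 72 h (x axis), circles for control, squares for Asn restriction and bars for the group means. The 3 control libraries at 72 h lie lowest in the panels with Idh3a, at 0.289 to 0.336 for Idh3a to Idh3b, while in the panel of Idh3b to Idh3g the 3 libraries under Asn restriction at 24 h lie lowest, at 0.956 to 1.12.

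Idh2 and Idh3a use the same substrate with different cofactors. In control, the ratio of Idh2 to Idh3a per kilobase went from 0.0754 ± 0.010 at 4 h through 0.436 ± 0.017 at 24 h to 1.54 ± 0.11 at 72 h (SD, n = 3). Under Asn restriction it went from 0.0292 ± 0.0048 through 0.298 ± 0.024 to 0.454 ± 0.044. Only the control libraries at 72 h held more Idh2 than Idh3a per kilobase.

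The 2-oxoglutarate dehydrogenase complex and succinyl-CoA ligase carry out the next steps, and their genes went opposite ways at 72 h. Ogdh had 277, 282 and 271 CPM in control and 226, 235 and 230.1 CPM under Asn restriction at 4 h (log2 fold change -0.26, SE 0.040, adjusted p = 2.29e-06). At 24 h it had 275, 274 and 276 CPM against 244, 246 and 246 CPM (-0.16, SE 0.040, adjusted p = 0.000808), and at 72 h 213, 213 and 217 CPM against 160.1, 166 and 162 CPM (-0.40, SE 0.041, adjusted p = 1.42e-09). The 3 libraries of each group lay close together and the media never overlapped. Ogdh was the 1 member whose difference grew in the negative direction from 24 to 72 h, by -0.23 on the log2 scale (SE 0.057, adjusted p = 0.00092). With spike-in scaling its values at 24 and 72 h were 0.07 and -0.05, neither called, and its 4 h fall was not called (adjusted p = 0.136). Without TMM factors the 24 h value was -0.06 and not called (adjusted p = 0.249).

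Suclg1 had 40.8, 42.2 and 38.4 CPM in control and 30.3, 29.7 and 31.7 CPM under Asn restriction at 4 h (log2 fold change -0.40, SE 0.064, adjusted p = 3.71e-06). At 24 h it had 104, 97.4 and 97.5 CPM against 71.7, 69.4 and 71.6 CPM (-0.49, SE 0.055, adjusted p = 5.78e-09). At 72 h the control libraries were lower, with 79.0, 74.0 and 78.6 CPM against 111, 113 and 116 CPM (0.55, SE 0.056, adjusted p = 8.20e-10). The media were apart at each time, with control above at 4 and 24 h and below at 72 h, a turn of 1.04 on the log2 scale (SE 0.078, adjusted p = 7.05e-13). Suclg1 had the highest mean of its 6 groups under Asn restriction at 72 h.

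Fumarate hydratase turns fumarate into malate. Fh1 had 79.5, 72.4 and 74.0 CPM in control and 55.8, 54.0 and 52.0 CPM under Asn restriction at 4 h (log2 fold change -0.48, SE 0.060, adjusted p = 6.28e-08), and 136, 134 and 140.1 CPM against 89.3, 81.4 and 79.4 CPM at 24 h (-0.71, SE 0.056, adjusted p = 3.25e-12). At 72 h it had 54.1, 57.3 and 53.2 CPM in control and 111, 106 and 103 CPM under Asn restriction (0.96, SE 0.060, adjusted p = 1.21e-14). No control library overlapped a library of the other medium at any time, and the order was turned at 72 h by 1.67 (SE 0.082, adjusted p = 2.10e-17). A deeper fall at 24 h than at 4 h (-0.23, SE 0.082, adjusted p = 0.0279) was lost when any of 6 of the 12 libraries concerned was left out, and without TMM factors or with spike-in scaling. Control libraries 2 and 3 and Asn restriction library 1 at 4 h, control library 3 and Asn restriction libraries 2 and 3 at 24 h were those 6, with adjusted p from 0.067 to 0.0907.

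Mdh2 converts malate to oxaloacetate and was the member with the highest level per kilobase in all 6 groups. It had 225, 208 and 209 CPM in control and 192, 181 and 180.3 CPM under Asn restriction at 4 h (log2 fold change -0.22, SE 0.054, adjusted p = 0.00119), and 265, 262 and 258 CPM against 232, 223 and 228 CPM at 24 h (-0.20, SE 0.052, adjusted p = 0.0016). These were among the smallest differences of the 9. The 24 h one was called neither without TMM factors (adjusted p = 0.127) nor with spike-in scaling, where it was 0.03. The 4 h one was not called with spike-in scaling (adjusted p = 0.2). At 72 h it had 226, 259 and 222 CPM in control and 292, 283 and 313 CPM under Asn restriction (0.33, SE 0.053, adjusted p = 3.27e-06). The highest control value was again that of the second library; without it the log2 fold change was 0.41 (SE 0.048, adjusted p = 1.24e-09). The turn from 24 to 72 h was 0.53 (SE 0.074, adjusted p = 2.73e-07).

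**Figure D3:**
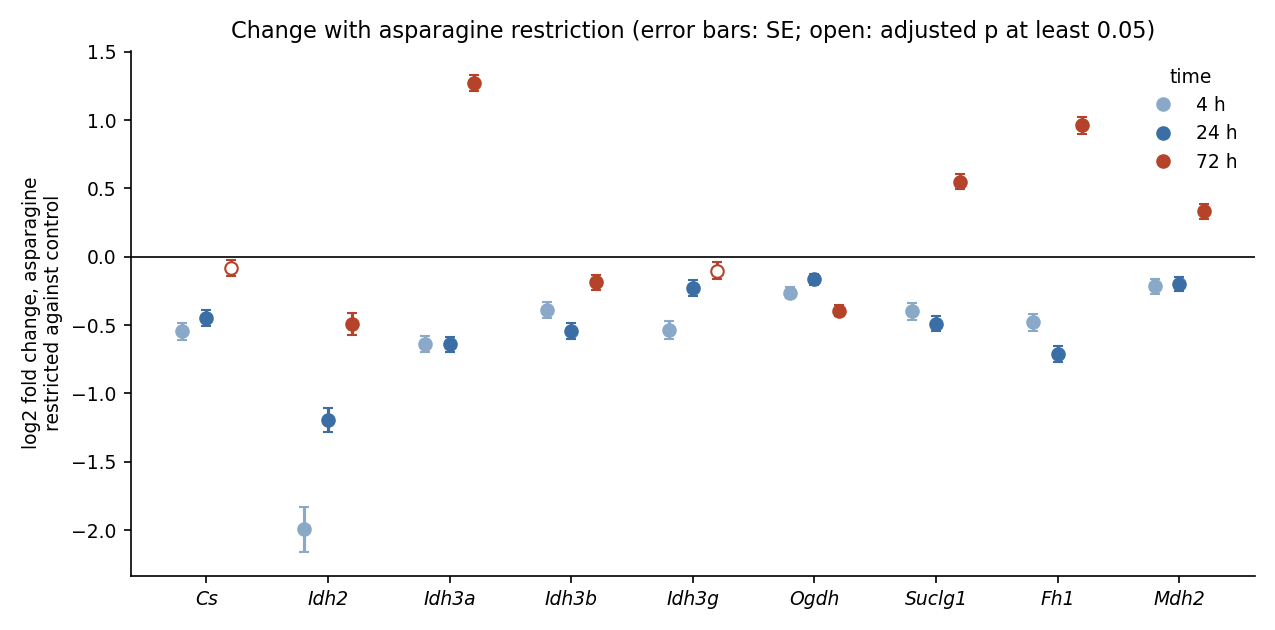
Log2 fold change of Asn restriction against control (y axis) for the 9 TCA cycle enzymes (x axis) at 4, 24 and 72 h, TMM-scaled, with bars for the SE and open symbols where the adjusted p was 0.05 or more. All 18 values at 4 and 24 h lie below 0 (with spike-in scaling Idh3g, Ogdh and Mdh2 lie just above 0 at 24 h), and at 72 h the values run from -0.49 for Idh2 to 1.27 for Idh3a.

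The difference between media was tested for change over time in the same fit. From 24 to 72 h it moved up in 7 of 9 members (29.5% of all genes), down in 1, Ogdh (27.7%), and not past the threshold in Idh3g (0.13, SE 0.085, adjusted p = 0.197). Cs moved by 0.37 (SE 0.080, adjusted p = 0.000236) and Idh3b by 0.35 (SE 0.080, adjusted p = 0.000347); neither was called without TMM factors or with spike-in scaling, and with the latter Mdh2 (adjusted p = 0.0677) and Ogdh (0.766) were not called either. Without the second control library at 72 h Cs moved by 0.47 and Mdh2 by 0.60. From 4 to 24 h the difference rose in 2 of 9 (Idh2 and Idh3g; 18.5% of all genes) and fell in 1 (Fh1; 17.8%), shares near those of all genes. Without TMM factors 6 rose, Cs, Idh3a, Ogdh and Mdh2 being added, and none fell. In that fit 4953 of all 14871 genes rose and 1425 fell. Idh3g moved by 0.31 (SE 0.089, adjusted p = 0.00672; 0.0673 with spike-in scaling).

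Within control medium, the members rose from 4 to 24 h and then parted. Of the 9, 8 rose from 4 to 24 h and none fell, against 34.9% and 34.7% of all genes; Idh2 rose most, 6.52-fold, then Suclg1, 2.47-fold. Ogdh was at -0.01 (SE 0.040, adjusted p = 0.871), and at 0.09 (adjusted p = 0.0397) without TMM factors. With spike-in scaling the rise of Idh3a from 4 to 24 h was not called (0.34, adjusted p = 0.134). That fit called 4676 of all 14871 genes higher and 2939 lower, with a median of 0.145. From 24 to 72 h in control, 3 rose (Idh2 by 0.40, Cs by 0.37 and Idh3b by 0.32; 35.7% of all genes rose) and 5 fell (35.1% fell). The largest falls were those of Idh3a, at -1.42 (SE 0.059), and Fh1, at -1.32 (SE 0.059), followed by Suclg1 at -0.37, Ogdh at -0.36 and Mdh2 at -0.15. The libraries of Mdh2 overlapped, and its fall did not pass the test without the first (adjusted p = 0.0743) or the third (0.0867) control library at 72 h, with spike-in scaling (0.322) or when every library had to hold 10 counts (0.0688). Without the second control library at 72 h the rise of Cs was 0.26 (adjusted p = 1.02e-06) and the fall of Mdh2 -0.23 (adjusted p = 5.84e-05). With spike-in scaling none of the 3 rises in control from 24 to 72 h was called.

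Under Asn restriction the members also rose from 4 to 24 h and most went on rising to 72 h. From 4 to 24 h, 8 of 9 rose and none fell (34.9% and 30.9% of all genes). Idh2 was at 3.51 (SE 0.14), Suclg1 at 1.22 (SE 0.060) and Cs at 0.98 (SE 0.060). With spike-in scaling 6980 of all 14871 genes rose and 1134 fell, with a median of 0.56. The background of these rises thus depends on the scaling. Ogdh, at 0.09 (SE 0.040, adjusted p = 0.0505), was just outside the threshold, and 5 of 10 alternatives called it; the rise of Idh3a (0.18) was lost with DESeq2's or the authors' size factors and in the Wald test, with adjusted p from 0.0642 to 0.0704. From 24 to 72 h, 8 of 9 rose and 1, Ogdh, fell (35.3% and 35.5% of all genes). Idh3a rose by 0.50 (SE 0.056), Fh1 by 0.35 (SE 0.057), Suclg1 by 0.67 (SE 0.055) and Mdh2 by 0.38 (SE 0.052), the 4 members that fell in control besides Ogdh; the rises of Fh1 and Mdh2 were not called with spike-in scaling (adjusted p = 0.0991 and 0.0835). Ogdh fell by 0.59 (SE 0.041). The rise of Idh3g, 0.19 (adjusted p = 0.00553), was lost without the first Asn restriction library at 72 h (adjusted p = 0.0549), without TMM factors and with spike-in scaling. Comparisons within a medium share the 24 h libraries, so they are given side by side only.

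The order of the 6 groups differed from gene to gene. For Cs, the mean rose from Asn restriction at 4 h through control at 4 h, Asn restriction and control at 24 h to both media at 72 h, and the 2 groups at 72 h were the 1 pair of neighbours whose libraries overlapped. For Idh3b and Suclg1 no neighbours in the order overlapped. For Idh3a the lowest group was control at 72 h, and the upper 3 (control at 4 h, Asn restriction at 72 h and control at 24 h) ran into each other. For Fh1 the lowest groups, Asn restriction at 4 h and control at 72 h, overlapped, and so did control at 4 h and Asn restriction at 24 h. For Ogdh the order was led by control at 4 h and control at 24 h, which overlapped, and closed by the 2 groups at 72 h. Idh2 and Idh3g shared 1 order, from Asn restriction at 4 h to control at 72 h. For both, Asn restriction at 72 h overlapped control at 24 h, and for Idh3g it also overlapped Asn restriction at 24 h. For Mdh2, 3 neighbouring pairs overlapped, and Asn restriction at 72 h stood above all other groups.

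Summed over the 9 members, control libraries had 1073, 1057 and 1031 CPM at 4 h and those under Asn restriction 807, 798 and 808 CPM. At 24 h the sums were 1452, 1470 and 1479 CPM against 1133, 1114 and 1094 CPM, and at 72 h 1273, 1388 and 1265 CPM against 1424, 1421 and 1431 CPM. On this TMM scale the sum was lower under Asn restriction at 4 and 24 h and higher at 72 h, with no overlap. Between genes, levels were compared per kilobase of the length given in the deposited table, which for all 9 is shorter than the union of annotated exons (1606 against 3562 bases for Mdh2), so the order depends on that length. At 4 h in control it ran from Mdh2 (133 ± 6.02 CPM per kilobase), Ogdh (67.0 ± 1.40) and Idh3a (53.2 ± 2.07) down to Suclg1 (14.6 ± 0.693) and Idh2 (4.00 ± 0.456; SD, n = 3). At 72 h in control Mdh2 (147 ± 12.7) and Cs (117 ± 14.7) led, and Idh3a (22.6 ± 0.544) and Fh1 (20.8 ± 0.825) came last. Under Asn restriction at 72 h Idh3a came after Mdh2, Cs and Idh3b, at 54.8 ± 3.18 CPM per kilobase, and Idh2 last, at 24.8 ± 2.02.

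Over the 18 libraries, which fall into 6 groups and are not independent points, log2 CPM of the members was compared pair by pair as a description. Of 36 pairs, 8 had a Pearson r above 0.9, all among Cs, Idh2, Idh3b, Idh3g, Suclg1 and Mdh2, with Idh2 and Idh3g at 0.987. Idh3a was closest to Fh1 (0.827) and near 0 with its partner subunits, at 0.0532 with Idh3g and -0.0697 with Idh3b. Ogdh was negative with Cs, Idh2, Idh3b, Idh3g, Suclg1 and Mdh2, down to -0.488 with Mdh2. Outside the 9, the genes closest to the mean standardized log2 CPM of the members were Coro1c (r = 0.990), Fdft1 (0.990), Aldh9a1 (0.988), Ints9 (0.983) and Xpo1 (0.983).

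Another 8 nuclear genes of the cycle (Dlst, Dld, Sucla2, Suclg2, Sdha, Sdhb, Sdhc and Sdhd) were less uniform at 4 h, where 2 rose and 1 fell with Asn restriction (median log2 fold change 0.06; -0.05 without TMM factors, with 2 lower and none higher, and -0.08 with spike-in scaling, with none called). At 24 h, 7 of 8 fell and none rose (median -0.30), led by Sdhd, a membrane anchor of succinate dehydrogenase (-0.55, SE 0.057), and Suclg2, the beta subunit of the GTP-forming succinyl-CoA ligase (-0.49, SE 0.062). With spike-in scaling the median was -0.06 and none was called. At 72 h, 5 rose and 1 fell (median 0.31). Dld, the E3 subunit that the 2-oxoglutarate and pyruvate dehydrogenase complexes share, went from 92.1 ± 15.8 CPM in control to 248 ± 8.68 CPM under Asn restriction (1.42, SE 0.075, adjusted p = 2.42e-16; SD, n = 3). Sucla2, the beta subunit of the ATP-forming ligase and a partner of Suclg1, rose by 0.73 (SE 0.074). Sdhb, the iron-sulfur subunit of succinate dehydrogenase, at -0.15 (SE 0.062), was the 1 that fell, and it was not called without the second control library or with spike-in scaling. The plot of changes at 24 and 72 h sets these 8 beside the members.

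**Figure D4:**
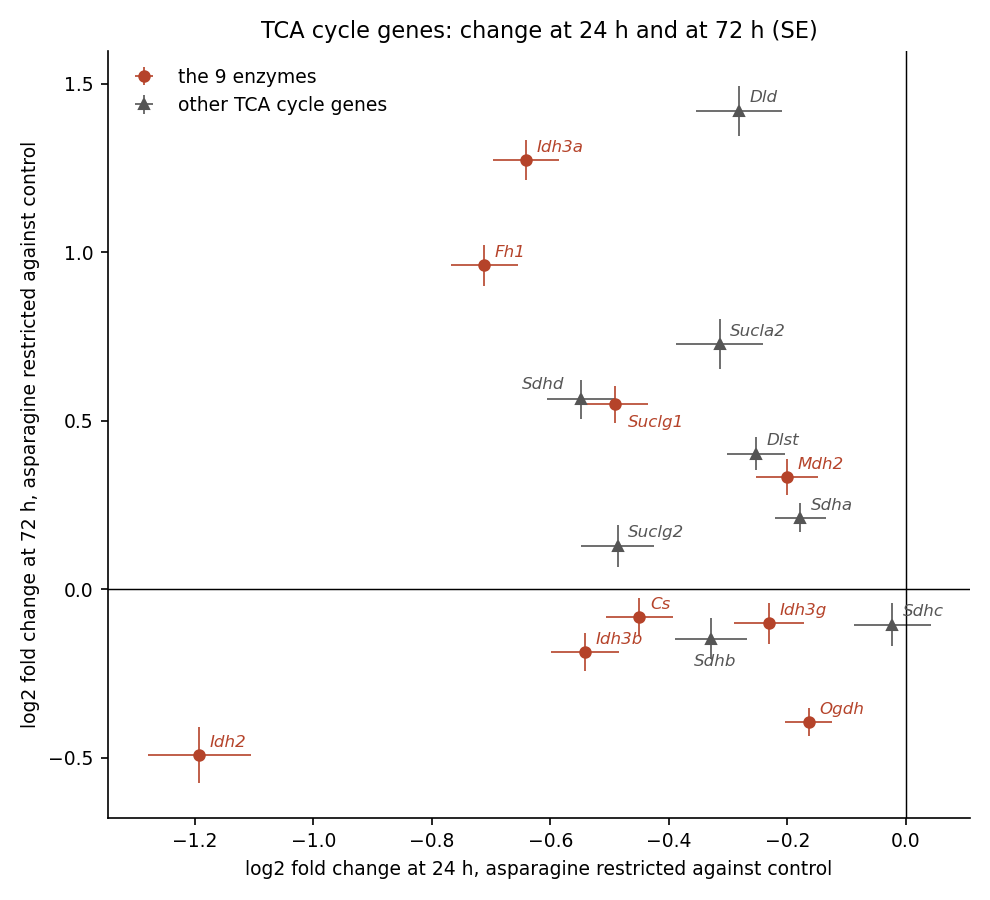
Log2 fold change of Asn restriction against control at 24 h (x axis) and at 72 h (y axis), TMM-scaled, for the 9 enzymes (circles) and another 8 TCA cycle genes (triangles), with bars for the SE. All genes shown lie left of 0 at 24 h (with spike-in scaling Idh3g, Ogdh and Mdh2 lie just above 0 among the 9 enzymes, and the median of the other 8 genes is -0.06), while at 72 h they spread from -0.49 (Idh2) to 1.42 (Dld).

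The list of pyruvate entry holds the pyruvate carriers, pyruvate carboxylase and the pyruvate dehydrogenase complex with the kinases that inhibit it and the phosphatases that activate it. Of 13 tested (Pdk4 did not pass the filter), 6 fell, the kinases Pdk1 and Pdk3 among them, and none rose at 4 h (median -0.49), while 7 did not pass the test; 9 fell and none rose at 24 h (median -0.55), and 5 rose and 2 fell at 72 h (median 0.13; 3 rose and 4 fell without TMM factors, median 0.02). With spike-in scaling 2 fell at 24 h (median -0.31). At 24 h Pdp2, a phosphatase that activates pyruvate dehydrogenase, was at -1.07 (SE 0.073) and Pdk1, a kinase that inhibits it, at -0.90 (SE 0.054). At 72 h Pdhx (1.09, SE 0.11) and Dlat (1.03, SE 0.065), which encode the E3-binding and E2 subunits of the complex, rose most. Pdk2, another inhibitory kinase, fell most (-1.98, SE 0.35), from 3.10 to 0.777 CPM, and Pdk1 was at -0.14 (SE 0.052).

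For glutamine entry, 3 of 6 genes rose and 2 fell at 4 h (median 0.21; 1 rose and 1 fell with spike-in scaling, median 0.07), 2 rose and 4 fell at 24 h (median -0.20; 2 rose and 1 fell with spike-in scaling, median 0.03), and 5 rose and none fell at 72 h (median 0.49). At 24 h the aminotransferase Gpt2 (0.40, SE 0.064) and the glutamine transporter Slc1a5 (0.27, SE 0.053) rose, while the glutaminase Gls2 (-1.41, SE 0.15) and the mitochondrial aspartate aminotransferase Got2 (-0.65, SE 0.045) fell. At 72 h Slc1a5 (0.68, SE 0.056) and Got2 (0.66, SE 0.045) rose most.

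Of 12 tested cytosolic counterparts and carriers between matrix and cytosol, 7 fell and 1 rose at 4 h (median -0.51; 5 fell and none rose with spike-in scaling), 8 fell and none rose at 24 h (median -0.85), and 10 rose and 1 fell at 72 h (median 0.71). At 24 h the citrate carrier Slc25a1 (-1.49, SE 0.090) and cytosolic isocitrate dehydrogenase Idh1 (-1.47, SE 0.25) fell most. At 72 h malic enzyme Me1 (1.76, SE 0.16) and Acly, which splits exported citrate (1.28, SE 0.041), rose most. The aspartate-glutamate carrier Slc25a12, at -0.17 (SE 0.066), was the 1 that fell, and it was not called without the second control library.

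Among 10 tested regulators of mitochondrial biogenesis, 5 rose and 3 fell at 4 h (median 0.12; none rose and 2 fell with spike-in scaling, median -0.01), 1 rose and 5 fell at 24 h (median -0.13; 0.11 and none called with spike-in scaling, 3 rose and 2 fell without TMM factors), and 6 rose and 1 fell at 72 h (median 0.29). At 24 h Nrf1 rose (0.24, SE 0.067), and the coactivator Ppargc1b (-0.52, SE 0.13) and the nuclear receptor Esrra (-0.46, SE 0.11) fell. At 72 h the mitochondrial transcription factor Tfb2m (0.89, SE 0.11) and Myc (0.84, SE 0.038) rose most, and Tfb1m fell (-0.64, SE 0.11). The alternatives for these other gene lists were chosen after seeing the data. For counts with TMM scaling, the shares of all genes that rose or fell are those given above for the 3 times. Without TMM factors, 2582 of 14871 genes rose and 4268 fell at 4 h, 4963 and 3293 at 24 h, and 3043 and 4555 at 72 h. With spike-in scaling, 942 rose and 2122 fell at 4 h, 3790 and 1099 at 24 h, and 4239 and 754 at 72 h.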

How the data were processed

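The deposited counts are whole-number reads per gene for 18 libraries, made by the authors; their processing notes list RSEM 1.31, STAR 2.7, Trim Galore 0.60 and the builds mm10 and hg19, without roles. The counting's strand setting is not given in the sources used here. The normalized signal values that the authors deposited equal the counts divided by a size factor per library and served only for that factor. Columns with the authors' group means, log2 fold changes and adjusted p-values were not used. Genes (18522) were kept apart from 63 ERCC spike-ins. After filterByExpr, TMM factors were computed and a quasi-likelihood model with 6 group means and 12 residual degrees of freedom was fitted to the 18 libraries together (edgeR 4.0.16 in R 4.3.3). Rose, fell and called mean an adjusted p under 0.05, by the Benjamini-Hochberg method over 14871 genes. The SE is the log2 fold change divided by the square root of F. The fit was also run on simulated data, whose outcome is not given here and is not used as evidence. Alternatives were other scalings, DESeq2 1.42.0, limma 3.58.1 (voom), other filters and thresholds, only the times compared, a replicate block and each library left out. Log2 CPM used a prior count of 2. Of 18522 gene IDs, 18513 matched GENCODE M21 without the version number, and all 9 members with it. All members are named; of each other list, up to 2 genes that rose and 2 that fell most at 24 and 72 h are named, and the 5 genes most correlated with the members. The members and lists were chosen with earlier results of these data known. A gene on one of the lists is not reported here. All 18 pairs of libraries from the same group differed beyond sampling noise.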

Additional observations from a re-analysis of the deposited data

Results flagged for a closer look

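The difference between media changed with time, by the test of that change, for these members. From 4 to 24 h the log2 fold change of Asn restriction against control moved by 0.80 for Idh2, by 0.31 for Idh3g and by -0.23 for Fh1. From 24 to 72 h it moved by 1.91 for Idh3a, 1.67 for Fh1, 1.04 for Suclg1, 0.70 for Idh2, 0.53 for Mdh2, 0.37 for Cs and 0.35 for Idh3b, and by -0.23 for Ogdh.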

How the results depend on the processing

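Member counts stayed within 1.5 times their TMM values under DESeq2 size factors, the DESeq2 Wald test, limma-voom, both other filters and the fit to the times compared. A fold change of at least 1.5 left 2 members lower at 4 h, 3 lower at 24 h, 2 higher and 0 lower at 72 h. It left 5 higher from 4 to 24 h in control and 5 under Asn restriction, 0 higher and 2 lower from 24 to 72 h in control, and 4 higher under Asn restriction. Of the changes in effect it left 1 higher and 0 lower from 4 to 24 h and 4 higher and 0 lower from 24 to 72 h. Shares of all genes at this cut are not given here, so these counts have no background beside them. Spike-in scaling left 2 lower at 24 h, 0 lower at 72 h, 0 higher from 24 to 72 h in control and 5 higher under Asn restriction. In effect it left 1 higher and 0 lower from 4 to 24 h and 4 higher and 0 lower from 24 to 72 h. Of all 14871 genes, 3751 rose and 4365 fell in that fit from 24 to 72 h in control, and 3793 and 3692 under Asn restriction. In effect 2399 of all genes rose and 375 fell from 4 to 24 h, and 2980 and 2119 from 24 to 72 h. With spike-in scaling, values called under TMM scaling turned for Idh3g (0.00273), Ogdh (0.0692) and Mdh2 (0.0319) at 24 h, Idh3b at 72 h (0.161) and the 4 to 24 h change of Fh1 (0.142). Values called in neither fit also turned, among them Cs (0.241) and Idh3g (0.216) at 72 h and the 4 to 24 h changes of Idh3b (0.207) and Suclg1 (0.284). Without TMM factors 5 were lower at 72 h, 6 higher and 0 lower in effect from 4 to 24 h, with Idh3a turned to 0.225 and Ogdh from 4 to 24 h in control to 0.0943; with the authors' size factors 5 were lower at 72 h. At an adjusted p under 0.01, 0 were lower in effect from 4 to 24 h, and leaving out each library gave 0 to 1. Of all genes called at 4, 24 and 72 h, 51.7, 49.5 and 51.6% were higher with TMM, 37.7, 60.1 and 40.0% without TMM factors and 30.7, 77.5 and 84.9% with spike-ins, whose share of counts ran from 0.829 to 1.497% among the Asn restriction libraries at 72 h. The cause of these shifts was not tested. Equally numbered libraries of both media did not deviate together (r from -0.0515 to 0.0101 in 9 pairs), and with the replicate number as a block 9 members were lower at 4 h, 9 lower at 24 h, and 4 higher and 3 lower at 72 h.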
